A study of Rattus norvegicus with 11 samples.

Results

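The small RNA table of rat pancreatic islets lists 216 features that carry an Ensembl transcript identifier (ENSRNOT) in place of a miRNA name and are counted on the sense strand. They were chosen by that identifier alone, with no use of their levels, though with earlier results of these data known. They come from 238 of the 950 rows of the table and are 216 of its 898 features, each feature being 1 mature arm under 1 name. They belong to 161 precursors, of which 55 have both a 5p and a 3p arm and 106 have a single arm. The other features are 671 with a miRNA name and 11 Ensembl features counted antisense, each of which drew at most 2 reads over all libraries.

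The study compared islets of 10-day-old Sprague-Dawley rats (P10, 5 libraries) with islets of 3-month-old male Sprague-Dawley rats (Adult, 6 libraries). The P10 libraries are labelled as islets of control animals, and no sex is used for them here. Each library was made from total islet RNA with an Illumina TruSeq small RNA kit. The libraries are described as biological replicates, with no word on pooling of animals, and p-values therefore measure the spread between these libraries.

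A miRNA is cut from a hairpin transcript in successive steps: the nuclear enzyme Drosha frees the hairpin, Dicer removes its loop, and Argonaute keeps one strand of the resulting duplex. The arm nearer the 5' end of the hairpin is called 5p and the other 3p, and usually one of them accumulates far more than the other. Neighbouring miRNA genes on one strand are often transcribed together as a cluster, and repeated DNA can hold many near-identical hairpins. In islets, miR-375 is the best known abundant miRNA and restrains insulin secretion.

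Library totals ran from 1432929 to 4483017 counts, so a library's floor of 3 counts lies between 0.671 and 2.10 CPM (counts scaled to a common library size). The islet label fits the markers, mainly through miR-375. The 9 islet endocrine features (miR-375, miR-7 and others) summed to 116811 to 169322 CPM (further scaled by TMM factors) at P10 and 258195 to 330495 in adults. Most of each sum was miR-375-3p, at 113191 to 166035 CPM at P10 and 251321 to 325126 CPM in adults. Of 8 mesenchymal markers 5 had a row, and they summed to 33250 to 61133 CPM at P10 and 17171 to 58291 CPM in adults. Leukocyte markers (4 of 5 with a row) summed to 676 to 1422 CPM and 248 to 829.1 CPM, and acinar markers to 21.1 to 33.8 CPM and 26.3 to 119 CPM. Neither of the endothelial markers had a row, and the neuronal and glial ones summed to at most 9.36 CPM in each library.

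A pair of P10 libraries stood apart in a subset of the unnamed features, described below as repeated layouts. Of the 38 tested features of these layouts, 35 were highest among the P10 libraries in P10 replicate 5 and 37 were lowest in P10 replicate 6. Among all 457 tested features the same held for 91 and 67, and among the 36 tested unnamed features outside the layouts for 11 and 7. The median ratio of replicate 5 to replicate 6 was 6.67 in the layout features, 1.18 in the other tested unnamed features and 0.901 in the tested named ones. Replicate 6 was the deepest of the 11 libraries, with 4483017 counts, and replicate 5 had 3024258. Replicate 5 also had the highest leukocyte sum of the 11 libraries, 1422 CPM, and the part of such cells in these levels was not tested. Results that rest on the layouts are given below with and without these libraries.

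None of the 161 Ensembl identifiers was found in the RefSeq tables of rat genes and miRNAs, so no sequence is printed for them. Only identifiers were compared, not sequences or positions. Whether any of these precursors is a known miRNA under another name was therefore not tested. The sequences of the named neighbours of the best supported pair on chromosome X are shown because position is the main thing known of that pair. They are RefSeq mature sequences (GRCr8), with the seed, bases 2 to 8, in capitals.
rno-miR-450a-5p: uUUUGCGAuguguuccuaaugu
rno-miR-542-3p: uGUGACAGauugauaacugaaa

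Most unnamed features were scarcely counted. Over all 11 libraries 64 of the 216 had at most 3 reads, 91 had under 10, 47 had 10 to 99, 50 had 100 to 999 and 28 had at least 1000. The median level was 0.763 CPM, against 8.39 CPM for the 671 named features. The expression filter kept 74 of the 216 (34.3%) and 383 of the 671 named features (57.1%), and no unnamed feature that was left out averaged more than 4.54 CPM. At or above 20 CPM there were 42.

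The few abundant ones reached the level of the leading islet miRNAs. ENSRNOT00000073699-3p (chromosome 4, 145680972 to 145680992, minus strand, rn5) averaged 53756 CPM and ranked 4th of 898 features. ENSRNOT00000072394-5p (chromosome 7, 70463575 to 70463596, plus strand) averaged 46019 CPM and ranked 6th. For scale, miR-375-3p ranked 1st with 222097 CPM. ENSRNOT00000072553-5p (chromosome 8, 114237845 to 114237866, plus strand) came next among the unnamed features, with 3210 CPM and rank 32, and ENSRNOT00000074704-5p (chromosome 10, 51999773 to 51999794, minus strand) followed with 499 CPM and rank 86. The plot of the 10 most abundant features shows how steeply levels fall after the leading pair.

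**Figure D1:**
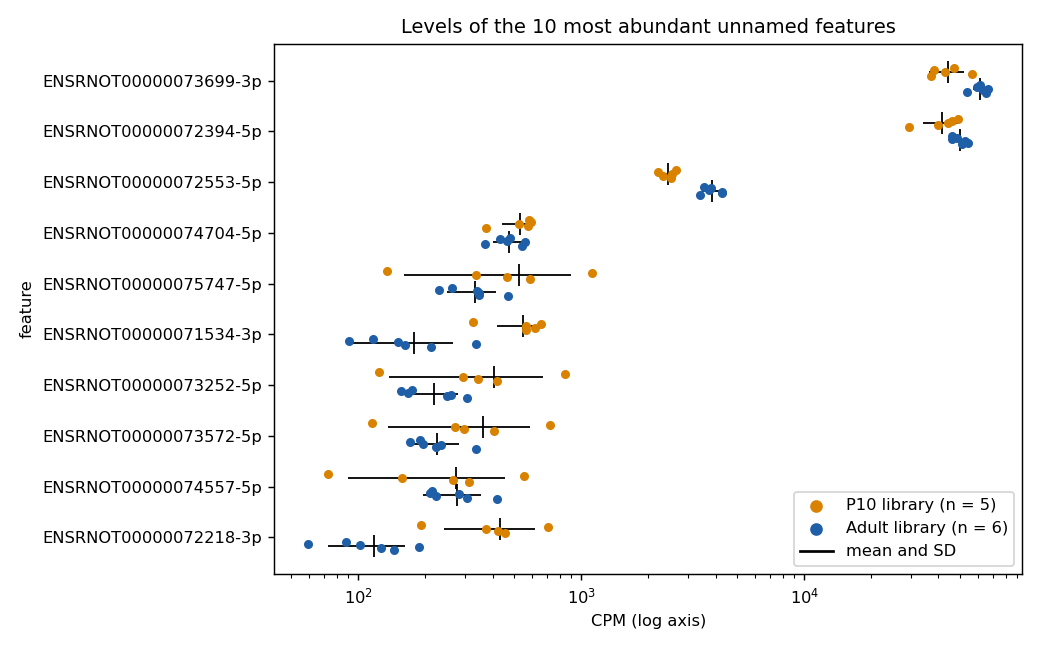
CPM on a log axis of the 10 most abundant unnamed features (rows) in the 5 P10 libraries (orange) and 6 adult libraries (blue), with the mean and SD of each age as black bars. The leading pair lies above 29604 CPM in each library and the 7 lowest rows below 1112 CPM, where P10 replicates 5 and 6 set the ends of the P10 spread in the repeated layouts.

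As a percentage of all counts, the unnamed features took a similar share of each library at both ages. They held 9.35, 9.83, 10.8, 11.4 and 10.96% of the counts in the P10 libraries (replicates 1, 3, 4, 5 and 6) and from 10.3 to 11.2% in the adult ones, with a median of 11.05%. The ages overlapped, with means of 10.5 ± 0.840% (SD, n = 5) and 10.95 ± 0.359% (SD, n = 6). The difference between these means depended on the features counted. It grew without miR-375-3p in the denominator and turned negative without the most abundant unnamed feature, as given in the last section. miR-375-3p itself averaged 143152 CPM at P10 and 287885 CPM in adults. The leading pair alone accounted for 9.42 ± 0.831% and 10.3 ± 0.339%. All other unnamed features together held 1.04 ± 0.342% at P10 and 0.695 ± 0.0628% in adults. Those outside the repeated layouts, after the 3 most abundant, held 0.193 ± 0.0145% and 0.105 ± 0.0104%, and here the ages did not overlap. This remainder was cut by level and layout. It includes ENSRNOT00000072773-3p, described below, which had the largest fall outside chromosome X among features of at least 20 CPM. Of all single tested features, 30.0% had ages that did not overlap in CPM. The shares above are sums over features chosen with earlier results known and are given without a test.

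The unnamed features differed from the named ones in the shape of their rows. Their mature arms were 15 to 27 bases long, and 122 of 216 (56.5%) had 21 to 23 bases. Of the 576 named sense features 87.8% fell in that range, within a full range of 17 to 25 bases. By definition no feature of the repeated layouts described next, 52 in all, has such a length. The 122 therefore all lie among the other 164 unnamed features. The distance between the arms had a median of 14 bases (quartiles 11 and 20) in the 55 unnamed precursors with both arms. In 240 named precursors the median was 16 bases (quartiles 14 and 18). In 2 unnamed precursors, ENSRNOT00000072422 and ENSRNOT00000072971, the 15-base arms overlapped by 3 bases.

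Several arm layouts recurred among the unnamed precursors and in no named precursor with both arms. The layouts were picked after the positions were seen, from lengths and spacing alone and not from counts. In 8 precursors an 18-base 5p arm was followed by 11 bases and an 18-base 3p arm. Another 4 had 19-base arms 6 or 7 bases apart, 6 had 20-base arms 13 bases apart, and 4 had 24-base arms 14 or 16 bases apart. A further 8 had a single arm of 26 bases, listed in 2 rows each. In 7 of these 8 both rows give the same place. Together these layouts held 52 features of 30 precursors. Smaller repeats were left among the other unnamed features, such as the 25-base arms 12 bases apart of ENSRNOT00000072817 and ENSRNOT00000075764. The 24-base layout has a near match among named precursors, as miR-6331 has 24-base arms 17 bases apart.

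The precursors with repeated layouts lay at 13 places on 7 chromosomes, and some pairs of layouts recurred at an exact distance. A 19-base precursor was followed by an 18-base one starting 726 bases downstream on 3 occasions, once on chromosome 1 and at 2 places on chromosome 14. Each of the 6 20-base precursors was preceded by a 26-base one starting 179 bases upstream, on the plus strand of chromosome 14 and on the minus strand of chromosome 6. One run, on chromosome 14 from 46831449 to 46834373, held 5 precursors of 4 layouts. Whether reads that match several such copies were split or repeated over them is not given in the sources used here, so the copies are not independent measurements.

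**Figure D2:**
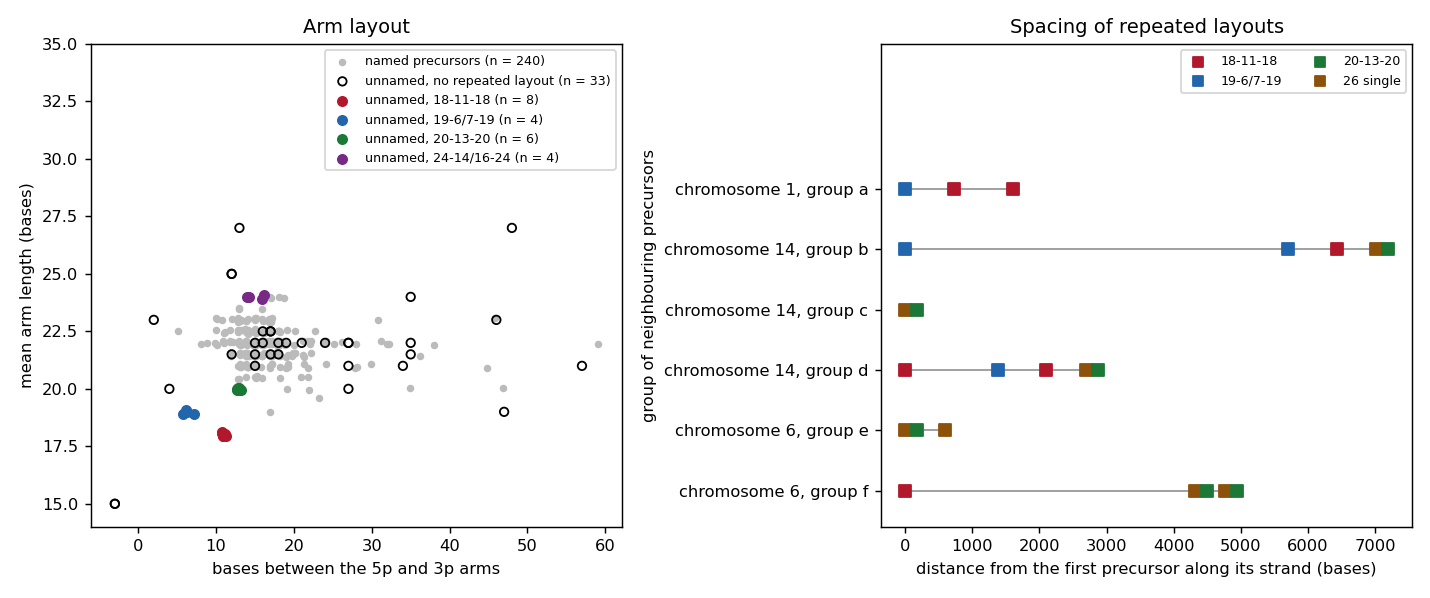
Left, bases between the arms (x) against mean arm length in bases (y) for unnamed (open or coloured) and named (grey) precursors with both arms, with small random shifts to separate points. Right, distance in bases from the first precursor along its strand for 6 groups of neighbouring precursors with repeated layouts, coloured by layout (5p length, bases between, 3p length), where the pairs 726 and 179 bases apart recur.

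Unnamed features rarely sat beside named miRNAs. None of the 216 overlapped a named feature on either strand, 4 lay within 1 kb of one, 13 within 10 kb and 23 within 50 kb. All 13 within 10 kb were on the strand of their neighbour. The median distance to the nearest named feature was 2.47 Mb. Of the 13, only 2 had enough reads to be tested, both on chromosome X.

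Those 2 features occupy matching positions in apparent neighbouring copies of the miR-450a and miR-542 region, a cluster that also holds miR-322 and miR-503. ENSRNOT00000070944-5p (chromosome X, 152778568 to 152778588) lies 112 bases from miR-450a-5p, whose sequence is printed above. ENSRNOT00000075147-5p (chromosome X, 153216287 to 153216307) lies 1045 bases from miR-542-3p. Both start 1067 bases after the start of a miR-542-3p row and 133 bases before the next 5p row, and they are 437719 bases apart. That next row is miR-450a-5p for the first and another unnamed feature, ENSRNOT00000073500-5p, for the second. ENSRNOT00000073500 had only 5 reads over both arms. Read sharing between such copies cannot be judged from the counts.

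Both were far lower in adult islets than at P10. ENSRNOT00000070944-5p had 38.0, 30.3, 43.8, 33.1 and 31.4 CPM in the P10 libraries, and from 5.53 to 10.7 CPM (median 8.48) in adults. ENSRNOT00000075147-5p had 56.5, 50.4, 59.1, 52.4 and 49.1 CPM at P10 and 5.62 to 12.98 CPM (median 10.2) in adults. In each of the 2 every P10 library lay above every adult one. The log2 change (adult minus P10, edgeR quasi-likelihood test, adjusted over all 457 tested features) was -2.10 ± 0.21 (SE, adjusted p = 3.51e-06) for the first, a 4.27-fold fall. For the second it was -2.47 ± 0.20 (adjusted p = 6.56e-07), a 5.55-fold fall. In bulk islets, fewer cells of a type and less RNA per cell cannot be told apart.

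The named neighbours moved by like amounts. At P10 miR-450a-5p had 301.4 ± 47.1 CPM (SD, n = 5), and adults had 74.96 ± 23.2 CPM (SD, n = 6), a log2 change of -2.01 ± 0.22. miR-542-3p went from 39.5 ± 12.3 to 8.01 ± 3.14 CPM, a log2 change of -2.32 ± 0.30. The differences between the unnamed features and these neighbours were not tested.

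The other near neighbours were counted too thinly for a test. ENSRNOT00000074219-5p (1628 bases from miR-466c-5p) had 18 reads in all, ENSRNOT00000063045-5p (101 bases from miR-17-2-3p, a member of the X-linked relative of the miR-17-92 cluster) had 16, and ENSRNOT00000054546-5p (92 bases from miR-449a-5p, a relative of miR-34) had 7. ENSRNOT00000063045-5p was found in all 5 P10 libraries and in 2 of the 6 adult ones. With 16 reads in all it was not tested between the ages, and no difference is read from these counts.

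Between the ages, 39 of the 74 tested unnamed features passed the threshold, 9 of them higher and 30 lower in adults. That is 52.7%, against 50.8% of all 457 tested features, so the share called was near the background. The direction was less even: 9 of 74 higher stands beside 21.2% higher over all tested features, and 30 of 74 lower beside 29.5% lower. The median log2 change was -0.81, against -0.11 over all tested features. For the 36 tested unnamed features outside the repeated layouts it was -0.14, near the value for all tested features. The lower median of the 74 therefore came from the 38 layout features, whose copies are not independent measurements. With other scalings of the same counts the higher share of the called unnamed features was 8.89% (library totals), 36.1% (DESeq2 size factors) or 37.1% (upper quartile), against 23.1% here. Only 12 of the 74 (16.2%) had ages that did not overlap, against 30.0% of all tested features. The lower calls were split between the repeated layouts (20 lower, 0 higher of 38 tested) and the other features (10 lower, 9 higher of 36).

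**Figure D3:**
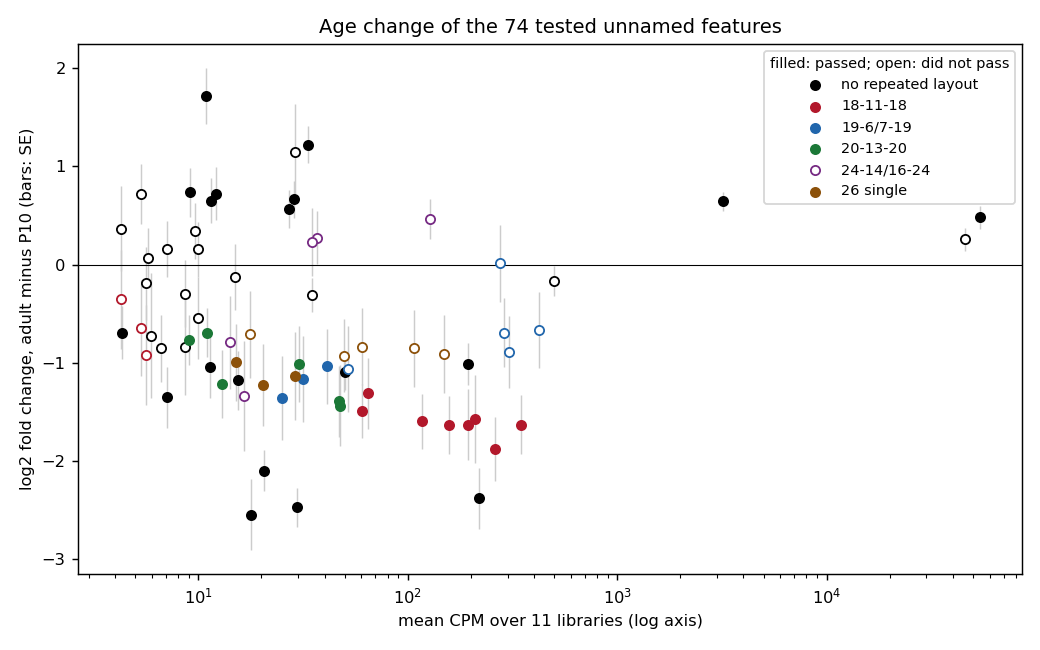
Log2 fold change, adult minus P10 (y, bars are SE), against mean CPM (x, log axis) for the 74 tested unnamed features. Filled points passed the test and open points did not, and colours mark the repeated layouts, in which 20 features lie lower in adults among those that passed and 0 higher.

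Of the most abundant unnamed features, 2 were higher in adults. ENSRNOT00000073699-3p had 37037, 56470, 42700, 38087 and 46878 CPM at P10, and 53476 to 67009 CPM (median 62515) in adults. P10 replicate 3 reached into the adult range. The rise was 0.48 ± 0.12 on the log2 scale (1.39-fold, adjusted p = 0.00389). Its size depended on the scaling, at 0.23 with library totals alone (adjusted p = 0.0247) and 0.64 with the upper quartile (adjusted p = 0.00143). ENSRNOT00000072553-5p had 2524, 2337, 2559, 2215 and 2646 CPM at P10 and 3398 to 4265 CPM (median 3776) in adults, with no overlap. It rose by 0.64 ± 0.10 (1.56-fold, adjusted p = 0.000107).

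The other leading feature, ENSRNOT00000072394-5p, sat near the threshold. It had 29604, 39737, 44062, 45965 and 48680 CPM at P10 and 45868 to 54195 CPM (median 49719) in adults. P10 replicate 1 was the lowest library and replicates 5 and 6 lay within the adult range. The log2 change was 0.26 ± 0.12 with an adjusted p of 0.0905. With DESeq2 size factors the adjusted p was 0.0295, and with library totals alone the log2 change was -0.0034. It also passed without P10 replicate 6 (adjusted p = 0.0491), and without P10 replicate 1 the log2 change was 0.15. Its place at the threshold therefore depends on the scaling and on single libraries. ENSRNOT00000074704-5p, with 530.3 ± 90.6 CPM at P10 and 473.0 ± 70.2 CPM in adults, did not pass either (adjusted p = 0.366), but passed when scaled by library totals, at a log2 change of -0.43 (adjusted p = 0.0168).

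Away from the layouts, 1 more feature met the rule for a clear rise and 2 more the rule for a clear fall. ENSRNOT00000075296-5p (chromosome 13, 81975830 to 81975850) had 17.8, 13.4, 22.7, 21.7 and 20.4 CPM at P10 and 38.1 to 61.2 CPM (median 42.7) in adults. All adult libraries lay above all P10 ones, and the rise was 1.22 ± 0.19 (2.33-fold, adjusted p = 0.000114). ENSRNOT00000073480-5p (chromosome 9, 99682360 to 99682381) had 65.4, 78.0, 67.5, 67.3 and 72.1 CPM at P10 and 23.5 to 46.6 CPM (median 32.0) in adults. Again there was no overlap, and its log2 change was -1.09 ± 0.19 (2.13-fold lower, adjusted p = 0.000288).

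The largest fall outside chromosome X among features of at least 20 CPM belonged to ENSRNOT00000072773-3p (chromosome 3, 16697118 to 16697139, plus strand). It had 379.2, 389.2, 425.0, 360.5 and 402.9 CPM at P10, a narrow band. In adults it ran from 40.8 to 173.6 CPM with a median of 58.4 CPM. Adult replicate 1 held the 173.6 CPM, and the other 5 adult libraries were at or below 69.5 CPM. The log2 change was -2.38 ± 0.31 (5.20-fold lower, adjusted p = 3.48e-05), and -2.78 without adult replicate 1. The other arm of the same precursor, ENSRNOT00000072773-5p, went from 32.3 to 5.85 CPM on average, a log2 change of -2.55 ± 0.36 (adjusted p = 6.8e-05). Adult replicate 1 also had the highest mesenchymal sum among adults, 58291 CPM against at most 31800 CPM in the others, and the part of such cells in this level was not tested.

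The 18-base layout was the most uniform of the repeated ones. Its 3p arm was the abundant arm in 8 of 8 precursors, with 94.5 to 99.1% of their reads. The 3p arm was lower in adults in 8 of 8, beside 29.5% lower over all tested features. These copies may share reads, so the 8 are not independent measurements. The log2 changes of the 3p arms ran from -1.87 to -1.31, with a median of -1.61. Of the 8 5p arms 3 were tested and 0 passed. ENSRNOT00000071534-3p (chromosome 5, 95180663 to 95180680) had 567.5, 619.8, 565.9, 659.7 and 327.4 CPM at P10 and 90.4 to 335.5 CPM (median 155.7) in adults. P10 replicate 6 fell just inside the adult range, and the log2 change was -1.63 ± 0.30 (3.10-fold lower, adjusted p = 0.000552).

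ENSRNOT00000072218-3p (chromosome 14, 46700769 to 46700786) had 454.9, 422.2, 374.1, 710.7 and 190.2 CPM at P10 and 59.8 to 187.0 CPM (median 114.2) in adults. The ages did not overlap, by a margin of a few CPM between P10 replicate 6 and adult replicate 3. It fell by 1.87 ± 0.32 on the log2 scale (3.67-fold, adjusted p = 0.000375). ENSRNOT00000074633-3p and ENSRNOT00000071987-3p, both on chromosome 14, also had separate ages, with falls of 3.10-fold and 3.02-fold. All 8 3p arms stayed lower in adults, past the threshold, when any single library was left out, and 7 of 8 did with limma-voom.

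The 19-base layout was as abundant but did not give a clear age difference. Its 5p arm led in 4 of 4 precursors, with 84.9 to 91.5% of the reads, and 0 of 4 5p arms passed. ENSRNOT00000075747-5p (chromosome 14, 46694311 to 46694329) had 589.0, 466.5, 336.9, 1111 and 134.3 CPM at P10 and 229.8 to 469.0 CPM (median 344.2) in adults. P10 replicate 5 lay far above and replicate 6 below every adult library, and the log2 change was -0.67 ± 0.39 (adjusted p = 0.168). The same 2 libraries were the extremes for ENSRNOT00000073252-5p (123.7 to 843.2 CPM at P10, adjusted p = 0.0593) and ENSRNOT00000073572-5p (114.6 to 724.1 CPM, adjusted p = 0.115). For ENSRNOT00000074557-5p, at 73.2 to 555.4 CPM, the log2 change was 0.01 ± 0.39. Without P10 replicate 6, 3 of the 4 5p arms were lower in adults. Of the 3p arms 3 of 4 were lower, 0 of 4 without P10 replicate 5, and 1 or 2 of 4 without P10 replicate 1, P10 replicate 3 or any 1 adult library.

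Calls in the 20-base, 26-base and 24-base layouts also changed when single libraries were left out. In the 20-base layout 6 of the 6 tested features were lower in adults, with a median log2 change of -1.11, and 3 of 6 without P10 replicate 5 or adult replicate 5. In the 26-base layout 3 of 8 were lower, 8 of 8 without P10 replicate 6 and 0 of 8 without P10 replicate 5. The count was also 0 of 8 when P10 replicate 3 or any of the adult libraries 3 to 6 was left out, and 1 of 8 when P10 replicate 1 or either of the adult libraries 1 and 2 was. In the 24-base layout 0 of 5 tested features passed. Without P10 replicate 5, 2 of its 5 were higher, without adult replicate 3 it was 1 of 5, and without P10 replicate 6, 2 of 6 tested were lower.

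Summed over all layouts, the level was 5316, 4942, 4022, 9429 and 1932 CPM in the P10 libraries and 1827 to 3391 CPM (median 2618) in adults. P10 replicate 6 therefore lay within the adult range and the other 4 P10 libraries above it. The ratio of P10 replicate 5 to replicate 6 was 3.37 for the 18-base layout, 7.41 for the 19-base layout, 4.71 for the 20-base layout, 3.25 for the 24-base layout and 8.91 for the 26-base layout. Leaving out P10 replicate 5 took the lower calls in the layouts from 20 to 11, with 2 higher, and leaving out P10 replicate 6 took them to 32. They numbered 13 without adult replicate 4 or 6, 12 without adult replicate 5 and 12 with limma-voom. Outside the layouts the lower calls numbered 9 to 11 when any 1 library was left out, against 10 with all libraries.

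**Figure D4:**
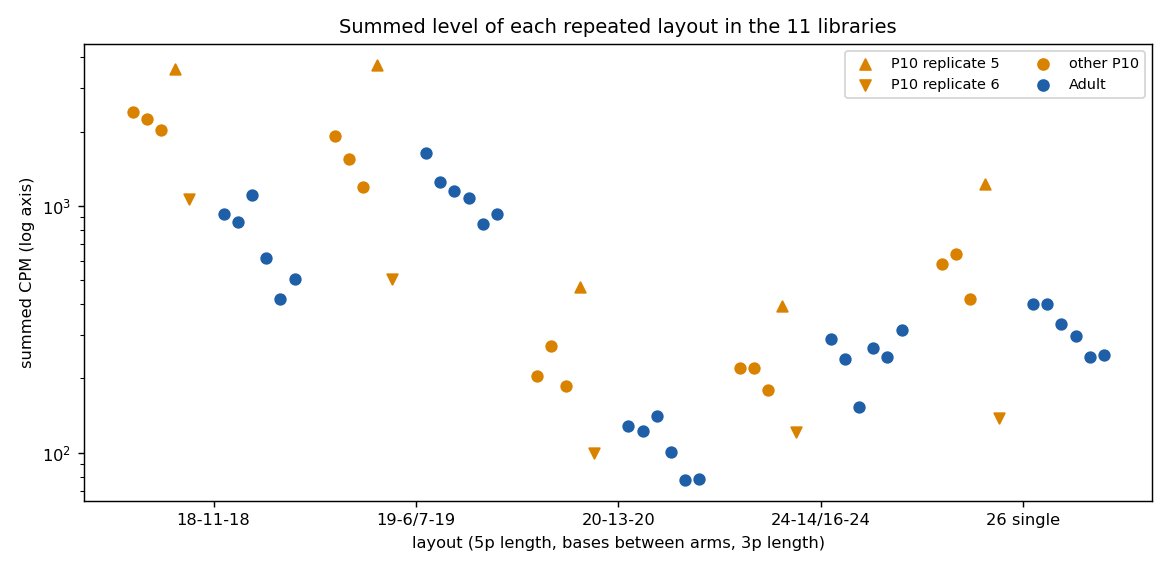
Summed CPM (y, log axis) of each repeated layout (x) in the 5 P10 libraries (orange) and the 6 adult libraries (blue), 1 point per library. Upward triangles mark P10 replicate 5, the highest P10 library in each layout, and downward triangles P10 replicate 6, the lowest. In the 18-base layout that library, at 1069 CPM, reaches the adult range, and in the others it lies within or below it.

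Most unnamed precursors with enough reads kept one arm. Of the 40 with at least 100 reads over both arms, 20 were led by 5p and 20 by 3p, and in 24 the leading arm held over 90% of the reads. In ENSRNOT00000073699 the 3p arm held 99.97 to 99.99% of the reads of each library. Among those with at least 400 reads, the most even were ENSRNOT00000073198, with 51.9% on the leading arm, and ENSRNOT00000072887 and ENSRNOT00000072504 of the 24-base layout, with 65.4% and 70.0%. Another 24-base precursor, ENSRNOT00000071478, was uneven, with 98.3% on 3p.

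The ratio of the arms changed with age in 5 of the 18 unnamed precursors that could be tested (27.8%, limma on log2 of 5p over 3p CPM). Over all 145 tested precursors 25.5% changed, so this share too was near the background. In ENSRNOT00000072394 the log2 ratio was 11.35, 11.52, 11.89, 12.56 and 11.91 at P10 and 12.62 to 14.28 in adults, with no overlap. The shift towards 5p was 1.58 ± 0.31 (adjusted p = 0.00277). Its minor 3p arm (chromosome 7, 70463613 to 70463634) had only 219 reads in all and fell from 10.6 ± 2.26 to 4.12 ± 2.12 CPM, a log2 change of -1.35 ± 0.31 (edgeR, adjusted p = 0.00281).

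The 4 other changes were in repeated layouts. In ENSRNOT00000074557, of the 19-base layout, the log2 ratio was 3.03, 2.77, 2.31, 2.39 and 2.50 at P10 and 3.48 to 4.25 in adults. P10 replicates 5 and 6 lay within the other P10 libraries here, unlike in the levels of the arms, and the shift towards 5p was 1.13 ± 0.20 (adjusted p = 0.00140). ENSRNOT00000074201 and ENSRNOT00000074633, of the 18-base layout, also shifted towards 5p, by 1.00 ± 0.25 (adjusted p = 0.00913) and 0.85 ± 0.26 (adjusted p = 0.0232). The call for ENSRNOT00000074633, where the ages overlapped, was lost without P10 replicate 4 (adjusted p = 0.0653), without adult replicate 5 (0.0522) and with a prior count of 0.5 (0.0915). For these the minor 5p arms were near the floor, at 4.28 and 5.63 CPM on average. ENSRNOT00000072887, of the 24-base layout, shifted towards 3p, with a log2 change of -1.28 ± 0.32 (adjusted p = 0.00926), and its ages overlapped through P10 replicate 6. Next in order, ENSRNOT00000073572 had a log2 change of 0.55 ± 0.21 and did not pass (adjusted p = 0.0695).

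**Figure D5:**
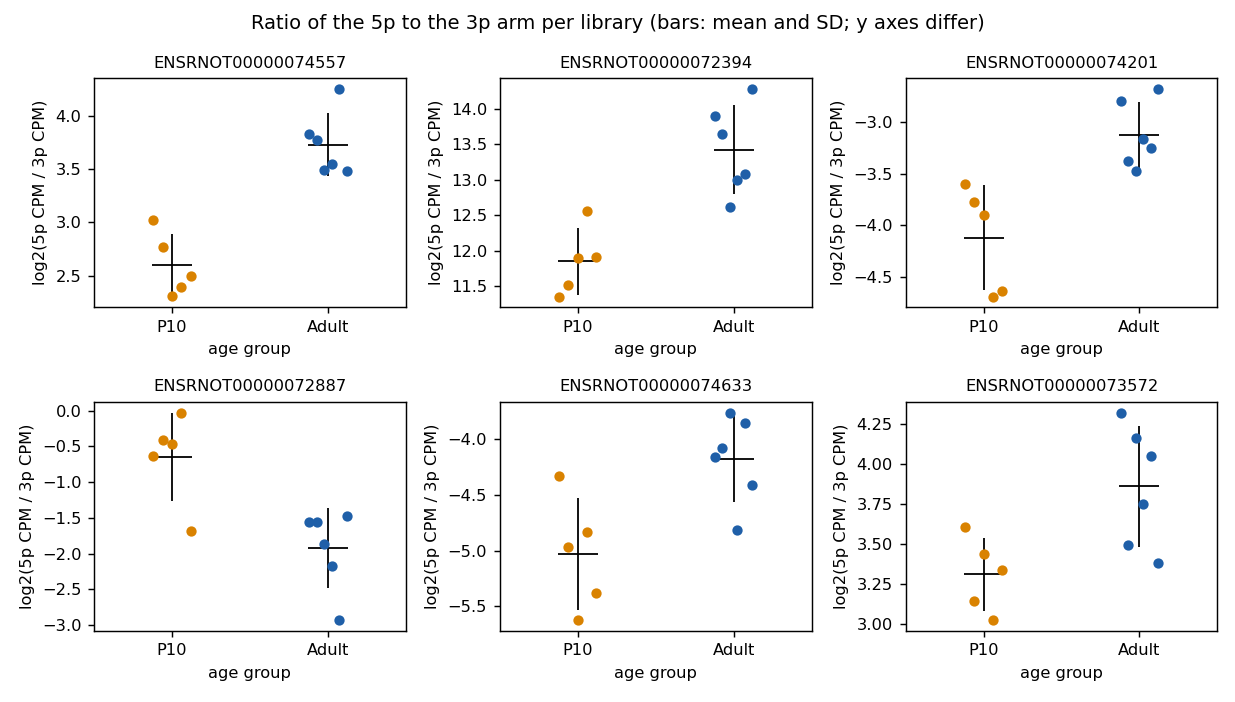
Log2 of the 5p over the 3p CPM (y, scale differs by panel) in each P10 (orange) and adult (blue) library for the 6 unnamed precursors with the smallest p for the arm ratio, with mean and SD as bars. The ages are apart in ENSRNOT00000074557, ENSRNOT00000072394 and ENSRNOT00000074201. They overlap in ENSRNOT00000072887 and ENSRNOT00000074633, which passed, and in ENSRNOT00000073572, which did not.

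The fall of ENSRNOT00000072773 left its arm ratio in place. The log2 ratio averaged -3.58 ± 0.21 (SD, n = 5) at P10 and -3.60 ± 0.25 (SD, n = 6) in adults, a difference of -0.02 ± 0.18 (SE). In ENSRNOT00000073699 the difference was 0.13 ± 0.25 (SE), with 299 reads in all behind the 5p arm, which itself went from 8.76 to 13.8 CPM (log2 change 0.65 ± 0.23, adjusted p = 0.032).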

How the data were processed

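Small RNA of 11 islet libraries was sequenced single-end. The values are raw counts of reads for each mature arm at each locus, as deposited, on rn5 per the submitters' processing notes. Those notes list edgeR and DESeq without saying what they did. How reads were aligned, counted and annotated is not given in the sources used here. Ligation and PCR favour some sequences, and reads carry no stated molecular identifiers, so floors cover counting error only.

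Each name entered once, with the highest count of its rows in each library. In R 4.3.3, edgeR 4.0.16 (filterByExpr by age, TMM factors, robust quasi-likelihood test, Benjamini-Hochberg adjustment over all 457 tested features, threshold 0.05) compared adult with P10. CPM are counts scaled to a common library size with TMM factors. Arm ratios were tested with limma 3.58.1 on log2 CPM with a prior count of 2, adjusted over 145 precursors. DESeq2 1.42.0 and limma-voom were alternatives. Scripts were tested on simulated data. Replicates of the same age were not duplicates (chi-square over degrees of freedom at least 12.95 for each pair).

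Text names the 10 most abundant members, the largest rises and falls without overlap at 20 CPM or more (2 and 7 met this), the 6 smallest arm-ratio p-values, the 5 most abundant within 10 kb of a named miRNA and the 3 most abundant that did not pass. Other members are named as examples, chosen after their values were seen. Members and lists were chosen with earlier results of these data known. Places join precursors within 10 kb.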

Additional observations from a re-analysis of the deposited data

Results flagged for a closer look

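Of 52 groups of libraries examined, 6 held 1 library far from the others by Dixon's criterion, which chance meets in about 1 in 20 groups. P10 replicate 6 was low for ENSRNOT00000071534-3p, at 327.4 CPM, where the next P10 library had 565.9 CPM and the highest 659.7 CPM. P10 replicate 5 was high for ENSRNOT00000074557-3p, at 105.2 CPM with the next at 38.3 CPM, and for ENSRNOT00000073572-3p, at 88.3 CPM with the next at 32.9 CPM. All 3 features belong to repeated layouts.

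Adult replicate 1 was high for ENSRNOT00000072773-3p, at 173.6 CPM, where the next adult library had 69.5 CPM. The same library was low for the share of counts held by all unnamed features, 10.3% against 10.9 to 11.2% in the other adults. Adult replicate 3 was low for ENSRNOT00000072887-3p, at 21.999 CPM with the next at 36.4 CPM.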

How the results depend on the processing

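With library totals alone, 4 unnamed features were higher in adults in place of 9, and 54 of all features in place of 97. That scaling moved the median of all features by -0.27 (log2), and the upper quartile by 0.16. Of the called features over all features tested, 41.8% were higher, 22.4% with library totals, 51.5% with DESeq2 size factors and 55.2% with the upper quartile. Without the repeated layouts, an alternative added after seeing the data, 11 unnamed features were lower in place of 30. Leaving out 1 library gave 7 to 11 higher and 20 to 42 lower unnamed features (lowest without P10 replicate 5, highest without P10 replicate 6), and 86 to 97 higher and 108 to 137 lower over all features. The arm ratio was called in 3 precursors at 10 CPM in both arms, and in 4 to 8 with 1 library left out. The 10 CPM setting drops ENSRNOT00000072394, ENSRNOT00000074201 and ENSRNOT00000074633, whose minor arms average less, so it does not check their shifts. The share difference of 0.489 percentage points became 2.42 without the most abundant feature in the denominator and -0.356 without the most abundant unnamed feature, with 0.211 to 0.716 when leaving out a library. Within 1 kb of a named miRNA lay 4 unnamed features and within 50 kb 23. Directions turned for ENSRNOT00000072394-5p (-0.0034 with library totals), ENSRNOT00000074557-5p (-0.29 with library totals, -0.018 at a mean of 10 CPM, -0.24 to 0.48 when leaving out a library), ENSRNOT00000074201-5p (0.046 with limma-voom) and ENSRNOT00000072887-3p (-0.061 with library totals), none of which had passed. The cause was not tested. Of 507 checks of 25 named features, 464 kept direction and side of the threshold, and of 81 checks of 6 arm ratios 75 did. The replicate numbers did not pair the libraries: same-numbered libraries correlated at -0.08, 0.20, -0.05, -0.21 and 0.20, and 0 of 5 correlated best with its own number. With the number as a replicate block, 8 unnamed features were higher and 23 lower, 13 of these in the layouts in place of 20. No feature overlapped a named one, so dropping such features could not be run.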
